A study of Homo sapiens with 6 samples.

Results

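The ubiquitin-specific proteases (USP) were followed on 6 arrays of MDA-MB-231 cells, 3 after transfection of a single siRNA to ING2 and 3 after transfection of a non-targeting control siRNA. Members were taken by name: every gene with a probe set of its own whose symbol starts with USP and a number, leaving out the Y-linked copy and pseudogene symbols, with the probe set of highest mean over the 6 arrays standing for the gene. This gave 51 of 19777 measured genes, of which 45 carry a peptidase symbol and are read by 129 probe sets. The other 6 do not encode a USP enzyme: USP6NL, a GTPase-activating protein for RAB proteins, and 5 noncoding RNAs next to USP genes. USP6, USP10, USP15, USP32 and USP41 were not analysed here.

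USP enzymes are cysteine proteases that cut ubiquitin from proteins and form the largest family of human deubiquitinases. By removing ubiquitin they can spare a protein from the proteasome, return a receptor from the endosome to the cell surface, or erase a histone mark. Several work only with a partner, such as WDR48 for USP1, USP12 and USP46, and some have lost activity and act as scaffolds.

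The cells, MDA-MB-231, are a breast cancer line with mesenchymal traits and no estrogen receptor. Cells of both groups were transfected, and RNA was taken 4 days later by the treatment label and 3 days later by the extraction label. ING2 is a chromatin reader in a SIN3 histone deacetylase complex. Whether replicates were grown separately is not stated, so the p-values reflect only how far these arrays spread, possibly for technical reasons, and the model rests on 1 siRNA in 1 line. Since total RNA of whole cultures was measured, fewer cells of one kind and less RNA per cell cannot be told apart.

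The targeted transcript checked the labels: ING2 read 163, 188 and 161 intensity units after ING2 siRNA, against 1399.7, 1349 and 1324 units in controls, which is 12.5% of control (log2 change -2.997, SE 0.09, exact two-sided permutation p = 0.1). A second, dimmer ING2 probe set read 34.6, 40.1 and 26.8 units after ING2 siRNA, against 73.1, 111 and 93.7 units in controls. That is 36.5% of control (log2 change -1.45, SE 0.18). VIM, a mesenchymal marker, read 14324 to 15767 units after ING2 siRNA and 15172 to 16053 in controls, while ESR1, the estrogen receptor, read 109.6 to 112 units after ING2 siRNA and 97.2 to 112 in controls. Not every marker followed this. Of the others listed for the line, AXL, CAV1 and CD44 were bright (percentiles 98.6, 99.0 and 96.2 of genes by intensity), but SPARC was dim (26.6). Of the other luminal breast markers, PGR was dim (percentile 5.5), but GATA3 (55.6) and ERBB3 (55.3) lay above the median gene. Of the stromal marker pair, LUM fell by 0.87 (89.3 to 118 units after ING2 siRNA, 146 to 207 in controls) and DCN rose by 0.35 (98.6 to 108 units after ING2 siRNA, 77.3 to 82.4 in controls), on the log2 scale. DCN did not pass under any other scaling (limma adjusted p = 0.0593 to 0.0875) or averaged over its probe sets (0.16, limma adjusted p = 0.131), and LUM averaged over its probe sets stood at -0.40 (limma adjusted p = 0.0252). The blood markers CD3E and PTPRC had log2 changes of 0.26 and 0.00 that did not pass. The control probe sets for GAPDH, a sign of RNA integrity, had a log2 difference, 3' end minus 5' end, of 0.316 ± 0.042 after ING2 siRNA and 0.205 ± 0.015 in controls (SD, n = 3 each, exact two-sided permutation p = 0.1, the smallest that 3 against 3 arrays can give). For ACTB the same difference was 0.541 ± 0.096 after ING2 siRNA and 0.490 ± 0.110 in controls (SD, n = 3 each, exact two-sided permutation p = 0.6). The part of these differences in the results on USP genes was not tested.

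The question was which USP transcripts differed when ING2 was depleted. USP44, USP8 and USP33 fell and no member rose at a Benjamini-Hochberg adjusted p under 0.05 in limma, fitted over all 19777 genes. As a share of the 45 peptidase genes, 6.67% were lower and 0 were higher, against 4.67% lower and 3.62% higher among all genes. At an unadjusted p under 0.05, 11 peptidase genes were lower and 3 higher, 24.4% and 6.67%, against 13.6% lower and 19.4% higher among all genes. Most USP genes were bright, with 37 of the 45 above the median gene by intensity. Of these 37, 24.3% were lower and 5.41% higher unadjusted, against 23.7% and 12.3% of all genes above that median. The split over all genes, 716 higher and 924 lower, moved with scaling, to 260 and 1450 after median centring and 944 and 623 after quantile normalization.

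Most USP genes had small log2 changes. The median log2 change of the 45 was -0.02, beside 0.06 over all genes, with the lower and upper quartiles of the USP values at -0.24 and 0.11. Values were below 0 for 25 and above 0 for 20. Groups did not overlap for 8 lower members, 17.8%, against 13.8% of all genes, and for 9 higher members, 20.0%, against 22.8%. These shares are near those of the whole table. The sign of 37 of the 45 was the same in the deposited values, after quantile normalization and after cyclic loess. Median centring, which moved every gene by the same -0.07, left 33 with 1 sign throughout.

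**Figure D1:**
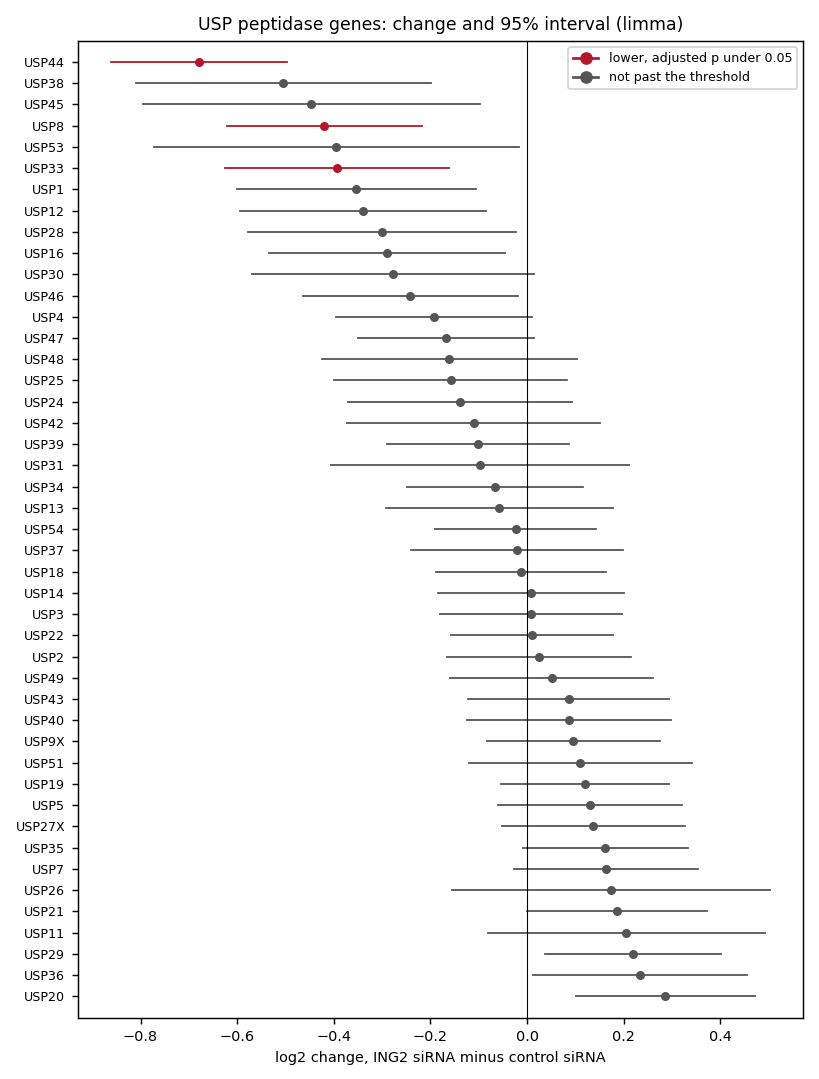
Log2 change in intensity (x axis, ING2 siRNA minus control siRNA) of each of the 45 USP peptidase genes (y axis), as the limma estimate (point) with its 95% interval (line). Red marks the 3 genes past the threshold, USP44, USP8 and USP33, all below 0, and USP20 at the bottom has the highest value, 0.29.

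USP44, which removes ubiquitin from histone H2B and restrains the anaphase-promoting complex in the spindle checkpoint, showed the largest fall of the family. Its only probe set read 20.9, 21.8 and 22.5 units after ING2 siRNA, against 35.2, 36.5 and 32.7 units in controls. All ING2 siRNA arrays lay below all control arrays. The level was 62.5% of control (log2 change -0.68, SE 0.08, limma adjusted p = 0.0132). This was a dim probe set, at percentile 14.1 of genes by intensity, and among the genes nearest to it by intensity, a bin of 1978, 0.455% fell and the median log2 change was 0.15.

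USP8, an endosomal enzyme that acts on the epidermal growth factor receptor and protects the sorting adaptors STAM and STAM2, fell to 74.8% of control (log2 change -0.42, SE 0.09, limma adjusted p = 0.0312). Intensities were 265, 284 and 253 units after ING2 siRNA, against 325, 374 and 374 units in controls, with no overlap. A second USP8 probe set had a log2 change of -0.08 that did not pass (limma adjusted p = 0.687 over all probe sets), and the mean of both did not pass (-0.25, limma adjusted p = 0.0960).

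USP33, which binds the von Hippel-Lindau protein and recycles adrenergic receptors, read 1578, 1992 and 1777 units after ING2 siRNA, against 2142, 2494 and 2369 units in controls. It fell to 76.1% of control (log2 change -0.39, SE 0.10, limma adjusted p = 0.0477), and the groups did not overlap. After quantile normalization its log2 change was -0.26 (limma adjusted p = 0.103) and after cyclic loess -0.29 (0.0887), neither past the threshold. After median centring it passed as lower (-0.46, limma adjusted p = 0.0377). All 3 probe sets of USP33 lay below 0, at -0.39, -0.35 and -0.18.

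USP20 is the close paralog of USP33 and shares its binding to the von Hippel-Lindau protein, and its values lay on the other side of 0. It read 379, 397 and 378 units after ING2 siRNA, against 339, 310.4 and 297 units in controls, again without overlap. Its log2 change of 0.29 (SE 0.08, limma adjusted p = 0.0570) did not pass in the deposited values. It did pass, as higher, once arrays were quantile normalized (0.36, limma adjusted p = 0.0337) or scaled by cyclic loess (0.32, limma adjusted p = 0.0489). After median centring USP20 did not pass (0.21, limma adjusted p = 0.128), and it passed in 1 of 6 fits that each left out 1 array. The difference between the paralogs was not tested.

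The calls depended on single arrays. In 6 fits that each left out 1 array, USP44, USP8 and USP33 each passed in 2, those without ING2 siRNA replicate 2 and without control replicate 1. Without ING2 siRNA replicate 2, 7 members were lower and 0 higher, when 1350 of all genes were lower and 1227 higher. Without control replicate 1, 8 members were lower and 2 higher, when 1631 of all genes were lower and 982 higher. Without any one of the other 4 arrays no USP gene passed, and over all genes 0 were higher and 2 or 3 lower. Log2 changes over the 6 fits ran from -0.72 to -0.64 for USP44, from -0.49 to -0.38 for USP8 and from -0.48 to -0.31 for USP33.

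**Figure D2:**
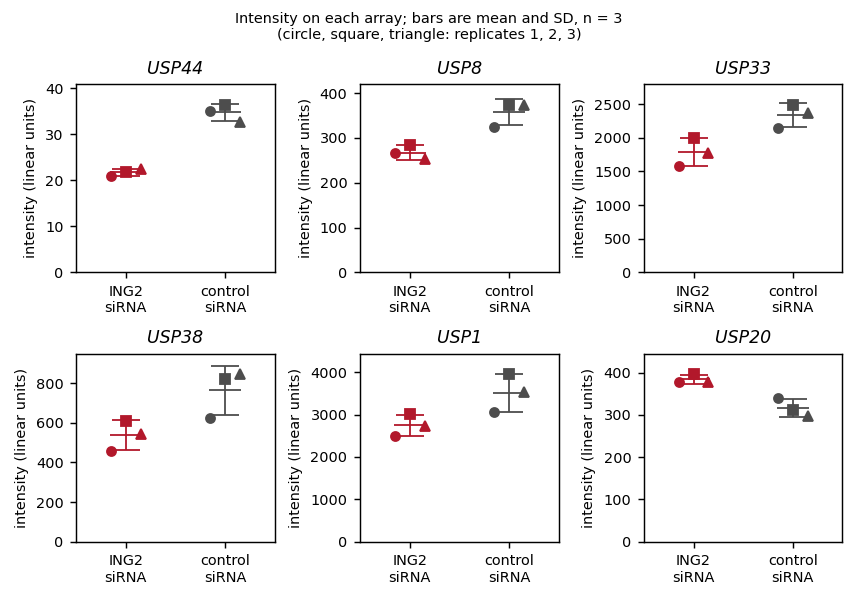
Intensity in linear units (y axis) on each array for 6 USP genes, with ING2 siRNA in red on the left and control siRNA in grey on the right. Marker shapes give the replicate, and bars give the mean and SD (n = 3). The groups do not overlap in any of the 6, and USP20 is the one that is higher after ING2 siRNA.

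The 250 bases before the annotated start of USP8, USP33 and USP20 are shown because USP8 and USP33 fell and USP20 had the highest value of the family. They come from RefSeq (GRCh38.p14), read on the strand of the gene: chr15:50424155-50424404 on the plus strand for USP8, chr1:77759853-77760102 on the minus strand for USP33 and chr9:129835208-129835457 on the plus strand for USP20. Capitals mark matches on either strand to any of 7 motifs. These were the GC box GGGCGG, the CCAAT box, the ETS core CCGGAAG, the NRF1 element GCGCATGC, the TATA box as TATAAA, the cyclic AMP response element TGACGTCA and the E-box CACGTG.
USP8: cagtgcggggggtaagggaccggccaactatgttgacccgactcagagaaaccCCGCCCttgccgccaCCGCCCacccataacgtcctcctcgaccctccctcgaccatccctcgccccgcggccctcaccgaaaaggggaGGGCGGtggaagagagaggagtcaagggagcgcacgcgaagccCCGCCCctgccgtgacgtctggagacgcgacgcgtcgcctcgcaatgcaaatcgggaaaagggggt
USP33: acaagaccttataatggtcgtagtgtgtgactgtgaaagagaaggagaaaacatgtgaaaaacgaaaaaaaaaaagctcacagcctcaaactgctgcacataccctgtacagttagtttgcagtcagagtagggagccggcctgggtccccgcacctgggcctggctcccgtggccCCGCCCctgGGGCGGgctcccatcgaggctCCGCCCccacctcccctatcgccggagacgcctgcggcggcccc
USP20: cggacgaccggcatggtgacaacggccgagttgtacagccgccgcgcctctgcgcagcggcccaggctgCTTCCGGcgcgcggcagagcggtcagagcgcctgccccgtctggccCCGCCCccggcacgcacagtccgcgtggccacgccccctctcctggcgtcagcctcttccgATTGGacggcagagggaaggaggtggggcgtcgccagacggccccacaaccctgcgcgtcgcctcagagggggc

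The USP8 window held 4 GC boxes, the USP33 window 3 and the USP20 window 1, and the USP20 window alone of these held a CCAAT match and an ETS match. Windows were given for 34 of the 45 genes, 47 windows in all, and USP44 was not among them. GC boxes were found in 70.2% of the USP windows and in 42.6% of 35116 windows of the same length over all genes. The ETS letters were found in 21.3% and 8.52%, the CCAAT box in 25.5% and 32.0%, the TATA box in 4.26% and 10.7%, the NRF1 element in 6.38% and 2.63%, the E-box in 4.26% and 6.34%, and the cyclic AMP response element in 0 and 1.65%. These are matches of letters and not sites of binding.

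Of the 8 enzymes that act on histones or belong to that group by close kinship, only USP44 passed. USP16, which acts on histone H2A, had a log2 change of -0.29 (SE 0.11), and its main probe set is of a type that can also match other transcripts. USP22, the enzyme of the SAGA coactivator, had a log2 change of 0.01 with a 95% interval from -0.16 to 0.18. Its close relatives USP27X (0.14) and USP51 (0.11), and USP3 (0.01), USP21 (0.19) and USP49 (0.05), did not pass.

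The 3 enzymes that WDR48 activates all had values below 0 and none passed. USP1, which takes ubiquitin off FANCD2 and PCNA, read 2490.0, 3002 and 2741 units after ING2 siRNA, against 3065, 3958 and 3521 units in controls. The groups did not overlap, with a log2 change of -0.35 (SE 0.11, limma adjusted p = 0.0674). Its other probe set, much dimmer, read 65.0, 108 and 105 units after ING2 siRNA. In controls it read 275, 137 and 153 units, with control replicate 1 far above the others. This probe set stood at -0.99 (SE 0.26, limma adjusted p = 0.0518 over all probe sets). The mean of both, which takes in that array, passed as lower (-0.67, limma adjusted p = 0.0171). USP12 read 289, 373 and 308 units after ING2 siRNA and 367, 448 and 410.1 units in controls, with overlap between the groups and a log2 change of -0.34 (SE 0.11, limma adjusted p = 0.0787). Its other probe set was at 0.00. USP46, the paralog of USP12, had a value of -0.24.

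None of the 7 measured enzymes of p53 control, genome maintenance and the cell cycle passed. USP45, which acts on the repair nuclease subunit ERCC1, read 28.8, 43.5 and 36.0 units after ING2 siRNA and 41.5, 57.6 and 47.8 units in controls. The groups overlapped and the log2 change was -0.45 (SE 0.16, limma adjusted p = 0.0864), while a second probe set fell by 0.56 (limma adjusted p = 0.0297 over all probe sets) and the last was at 0.06. USP7, which deubiquitinates MDM2 and p53, had a value of 0.16, and one of its 4 probe sets was below 0. USP28 (-0.30), which stabilises MYC, USP47 (-0.17), which acts on DNA polymerase beta, USP24 (-0.14), USP37 (-0.02), which acts on cyclin A, and USP29 (0.22) completed the group. USP29 read 16.8, 17.1 and 18.1 units after ING2 siRNA, against 14.02, 14.97 and 15.6 units in controls, without overlap (SE 0.08, limma adjusted p = 0.0999). This was a dim probe set, at percentile 7.8 of genes by intensity, in a bin with a median log2 change of 0.12. After quantile normalization USP29 was at 0.12 (limma adjusted p = 0.382).

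Enzymes of the endosome, membranes and organelles held 2 of the 3 falls, USP8 and USP33, among 7 measured. That is 28.6%, of few genes, against 6.67% of the 45 peptidase genes and 4.67% of all genes. Of the 7, 1 lay below the median gene by intensity, and above that median 8.25% of all genes fell. USP30, which sits in the outer mitochondrial membrane and opposes mitophagy, had a value of -0.28 (SE 0.13). USP9X (0.10), which protects MCL1, USP19 (0.12) and USP2 (0.02) did not pass, nor did USP20. The 3 other probe sets of USP2 had values of 0.25 to 0.44, none past the threshold over all probe sets.

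No gene of ubiquitin recycling passed. USP14, the enzyme bound to the proteasome, had a log2 change of 0.01 (95% interval -0.18 to 0.20), and USP5 (0.13) and USP13 (-0.06), which take apart free ubiquitin chains, did not pass. USP4 (-0.19) and USP11 (0.21) are paralogs. USP11, a partner of BRCA2, read 1269, 1288 and 1469 units after ING2 siRNA and 1429, 1006 and 1088 in controls, with the first control array inside the range of the ING2 siRNA arrays (SE 0.13, limma adjusted p = 0.281). Its log2 change ran from 0.10 to 0.36 over the fits that left out 1 array, and it passed as higher without control replicate 1 (limma adjusted p = 0.0473).

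USP18, which removes the interferon-induced modifier ISG15, had a log2 change of -0.01 (95% interval -0.19 to 0.16). USP25 (-0.16) and USP31 (-0.10) likewise did not pass. Of the 3 members long listed as lacking peptidase activity, the splicing factor USP39 (-0.10) and USP54 (-0.02) did not pass. USP53, a tight junction protein, read 238, 342 and 289.9 units after ING2 siRNA and 290.3, 415 and 445 units in controls, with overlap and a log2 change of -0.40 (SE 0.17, limma adjusted p = 0.138). Its other probe sets stood at -0.24, 0.03 and 0.03.

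USP36, a nucleolar enzyme, read 724, 748 and 795 units after ING2 siRNA, against 706, 666 and 564 units in controls. The groups did not overlap and the log2 change was 0.23 (SE 0.10, limma adjusted p = 0.134). Other USP36 probe sets ran from -0.06 to 0.47, none past the threshold.

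Among the 8 peptidase genes given no role here, USP38 came nearest the threshold. It read 457, 607 and 546 units after ING2 siRNA, against 624, 819 and 847 units in controls, without overlap. Its log2 change was -0.50 (SE 0.14, limma adjusted p = 0.0501), just outside the threshold, where USP33 lay just inside. A second USP38 probe set fell by 0.50 (SE 0.09, limma adjusted p = 0.0149 over all probe sets) and the last was at -0.02. The others were USP48 (-0.16), USP42 (-0.11), USP34 (-0.07), USP43 (0.09), USP40 (0.09), USP35 (0.16) and the X-linked testis gene USP26 (0.17). The 6 members that encode no USP enzyme had values from -0.19 to 0.24, and none passed. The highest was the noncoding RNA USP46-DT, which read 45.4, 46.3 and 48.5 units after ING2 siRNA, against 41.0, 38.5 and 39.5 units in controls (0.24, SE 0.08, limma adjusted p = 0.0760). It was dim, at percentile 21.4 of genes by intensity, in a bin with a median log2 change of 0.15. After quantile normalization USP46-DT was at 0.13.

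Replicates within a group were not alike for many members. Of the 25 peptidase genes with a value below 0, 14 read lowest on replicate 1 in both groups, as USP1, USP33, USP38, USP45 and USP53 did. Of the 20 above 0, 2 did so. Replicate 1 was the lowest ING2 siRNA array for 26 of the 45 and the lowest control array for 24. These counts were not made over all genes, so whether the order is particular to USP genes was not tested.

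**Figure D3:**
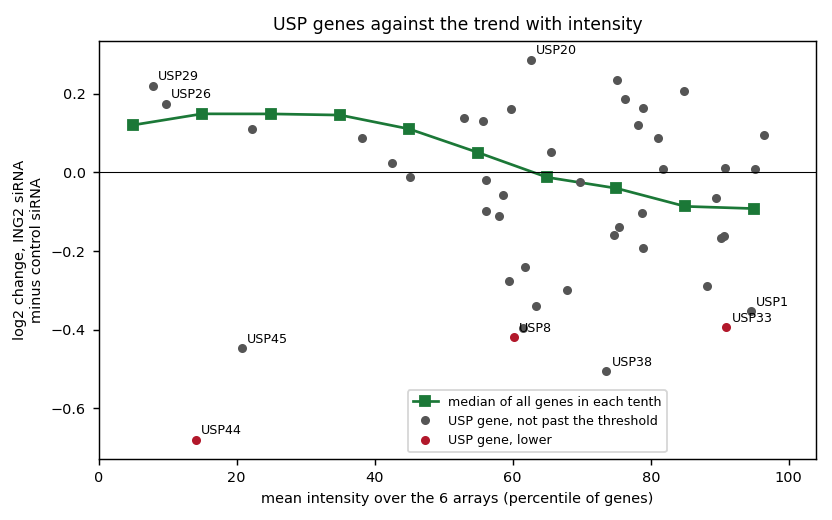
Log2 change (y axis, ING2 siRNA minus control siRNA) against the percentile of mean intensity (x axis) for the 45 USP peptidase genes. The green line joins the median log2 change of all genes in each of 10 bins by intensity, from 0.12 at the dim end to -0.09 at the bright end. USP44 and USP45 lie far below the line at the dim end.

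Over all genes, the median log2 change was above 0 for dim probe sets and below 0 for bright ones, and its part in the USP results was not tested. USP genes were mostly bright, with 37 of the 45 above the median gene by intensity. There 8.25% of all genes fell and 1.96% rose, against 5.41% and 0 of the 37 USP genes. Their median log2 change was -0.07, beside -0.04 for all genes above the median. Below it, 1 of 8 USP genes fell, USP44, where 1.09% of all genes did.

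Reading each probe set on its own, 8 of the 129 USP probe sets fell and 0 rose, 6.2% lower, against 5.12% lower and 2.18% higher over 41091 probe sets. They belonged to 8 genes. Besides USP44, USP8, USP33, USP38 and USP45 these were USP28 (-0.51, limma adjusted p = 0.0108), USP34 (-0.64, limma adjusted p = 0.0137) and USP47 (-0.89, limma adjusted p = 0.00382). The main probe sets of USP34 (-0.07) and USP47 (-0.17) were much closer to 0, and all 5 USP47 probe sets were below 0. For USP33 it was the second probe set that passed here, and the main one had limma adjusted p = 0.0561. Of 34 genes with several probe sets, 17 had all on the same side of 0.

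**Figure D4:**
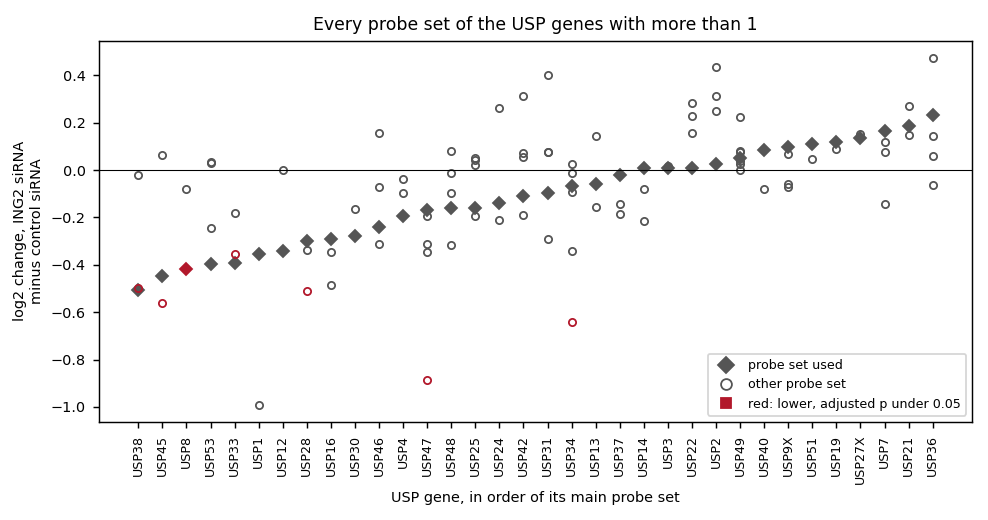
Log2 change (y axis, ING2 siRNA minus control siRNA) of every probe set of the 34 USP peptidase genes that have more than 1 (x axis), with diamonds for the probe set used and open circles for the others. Red marks probe sets that were lower in the fit over all probe sets. Probe sets of 1 gene can differ by over 0.5, as for USP1, USP34 and USP47.

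Partners of USP enzymes were read from a list of 20, of which 4 fell and 0 rose in limma, and 7 were lower and 4 higher at an unadjusted p under 0.05. That is 20.0% lower in limma, against 4.67% of all genes, and 35.0% lower and 20.0% higher unadjusted, against 13.6% and 19.4% of all genes, in a list drawn up with earlier results of these data known. Of the 20 partners, 2 lay below the median gene by intensity. Above that median, 8.25% of all genes were lower and 1.96% higher in limma, and 23.7% and 12.3% unadjusted. Transcripts of STAM2 and STAM, the adaptors whose proteins USP8 protects, were lower too, and a link to USP8 was not tested. STAM2 read 247, 284 and 259 units after ING2 siRNA, against 354, 473 and 470.2 units in controls, and fell to 61.4% of control (log2 change -0.70, SE 0.12, limma adjusted p = 0.0205). STAM fell by 0.49 (SE 0.12, limma adjusted p = 0.0402), with limma adjusted p = 0.0631 after quantile normalization and 0.0584 after cyclic loess. HGS (0.29), the other part of that sorting complex, and PTPN23 (0.40), a phosphatase-like endosomal protein, had values above 0 that did not pass in the deposited values. Both were called higher in quantile-normalized values (limma adjusted p = 0.0413 and 0.0458). Neither passed after cyclic loess (limma adjusted p = 0.0518 and 0.0665) or median centring (0.193 and 0.129).

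WDR48 (-0.12), WDR20 (-0.26) and DMWD (0.34), which activate USP1, USP12 or USP46 or join those complexes, did not pass in the deposited values, and DMWD was called higher in quantile-normalized values (limma adjusted p = 0.0405). Nor did the SAGA module parts ENY2 (-0.26), ATXN7 (0.13), ATXN7L1 (0.19), ATXN7L2 (0.36) and ATXN7L3 (0.12), the USP7 partner GMPS (0.13) or SART3 (0.01), which brings USP4 to the spliceosome. Averaging probe sets of each gene over the table, ATXN7L2 passed as higher (limma adjusted p = 0.0476) and G3BP2 as lower (-0.48, limma adjusted p = 0.00741). In the deposited values G3BP2 did not pass (-0.41, limma adjusted p = 0.0665). G3BP1, a stress granule protein and partner of USP10, read 2330.1, 2739 and 2173 units after ING2 siRNA, against 3430.4, 3974 and 3999 units in controls (log2 change -0.66, SE 0.11, limma adjusted p = 0.0193), while the mean of its probe sets did not pass (-0.21, limma adjusted p = 0.0650). UCHL5, a deubiquitinase of another family that shares the proteasome with USP14, fell by 0.46 (SE 0.11, limma adjusted p = 0.0369), with limma adjusted p = 0.0595 after quantile normalization and 0.0539 after cyclic loess. STAM2, STAM, G3BP1 and UCHL5 each passed in 2 of the 6 fits that left out 1 array, and over partners and substrates together 0 to 15 were lower in those fits, against 11 with all arrays.

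**Figure D5:**
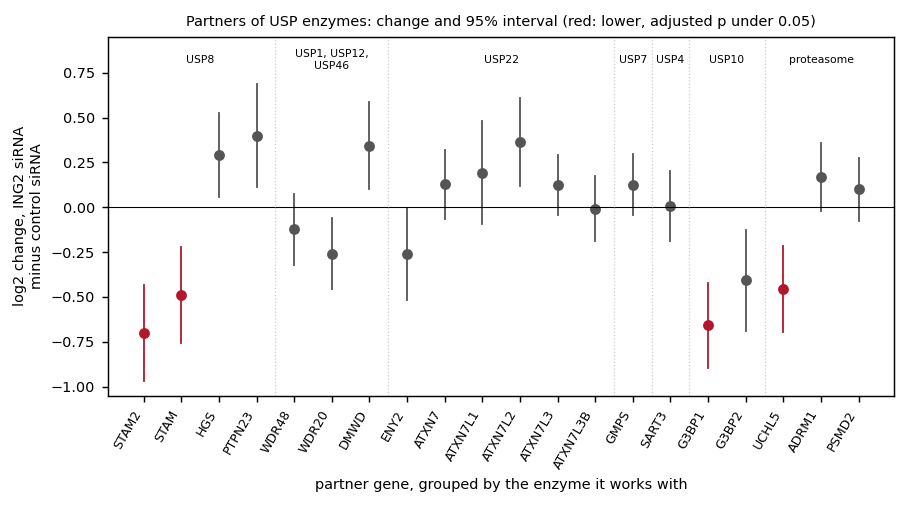
Log2 change (y axis, ING2 siRNA minus control siRNA) of 20 partner genes (x axis), grouped by the USP enzyme each works with, as the limma estimate (point) and 95% interval (line). STAM2, STAM, G3BP1 and UCHL5, in red, fell past the threshold, and PTPN23 has the highest value, 0.40.

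Transcripts of proteins that USP enzymes act on were also read. Of 20 measured from a list of 23, 7 fell and 0 rose in limma (9 lower and 0 higher at an unadjusted p under 0.05), with a median log2 change of -0.21, beside 0.06 over all genes. As shares these are 35.0% lower in limma and 45.0% unadjusted, against 4.67% and 13.6% of all genes, of which 3.62% and 19.4% were higher. Of the 20 substrates, 3 lay below the median gene by intensity. Above that median, 8.25% of all genes were lower and 1.96% higher in limma, and 23.7% and 12.3% unadjusted. The substrates that fell in limma were TGFBR1 (-0.70), CCNA2 (-0.62), MDM2 (-0.58), CHEK1 (-0.58), ID3 (-0.57), BECN1 (-0.51) and PCNA (-0.47). This list was drawn up with those values known and is no independent evidence. BECN1 and PCNA, outside the rule for named genes, were added after their values were seen. Averaged over probe sets, MDM2 stood at -0.01, TGFBR1 at -0.21 and BECN1 at -0.24, none past the threshold. MDM2 (limma adjusted p = 0.0509) and PCNA (0.0833) did not pass after quantile normalization, nor did PCNA after cyclic loess (limma adjusted p = 0.0880). EGFR (-0.01), MYC (0.06), CCND1 (0.06) and MCL1 (0.07), whose proteins are held up by USP8, USP28, USP2 and USP9X, did not pass.

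Outside the USP fold, 4 of 32 deubiquitinases of other families fell and 1 rose, 12.5% and 3.13%, against 4.67% and 3.62% of all genes. Of these 32, 3 lay below the median gene by intensity. Above that median, 8.25% of all genes fell and 1.96% rose. The histone H2A enzyme MYSM1 (-0.61, limma adjusted p = 0.0467), the COP9 signalosome subunit COPS5 (-0.41, limma adjusted p = 0.0300), MINDY3 (-0.52, limma adjusted p = 0.0193) and UCHL5 fell. COPS5 did not pass after quantile normalization (limma adjusted p = 0.0585) or cyclic loess (0.0513), and MYSM1 did not pass in the first of these (limma adjusted p = 0.05004). UCHL1 rose by 0.32 (SE 0.08, limma adjusted p = 0.0461), with limma adjusted p = 0.0780 after quantile normalization, 0.0880 after median centring and 0.117 after cyclic loess. In the deposited values no OTU enzyme among 14 and no Josephin enzyme among 4 passed. Nor did CYLD (-0.04), PAN2 (-0.05) or USPL1 (-0.16), which have the USP fold without a USP number. With arrays quantile normalized, the OTU enzymes OTUD3 (0.35, limma adjusted p = 0.0413) and OTUD7B (0.29, 0.0482) counted as higher. Averaged over probe sets, the OTU enzyme YOD1 (-0.47, limma adjusted p = 0.0222) and BRCC3 (-0.47, 0.0127), of the COPS5 family, counted as lower. STAMBP, of that family too, was lower once arrays were median centred (limma adjusted p = 0.0390). Ubiquitin itself, as UBB, was at -0.02, and its activating enzymes UBA1 (0.30) and UBA6 (-0.37) had values on opposite sides of 0 that did not pass in the deposited values. UBA1 was called higher in quantile-normalized values (limma adjusted p = 0.0407).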

How the data were processed

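Total RNA of 6 samples was measured on one-colour Affymetrix arrays of 54675 probe sets. The authors deposited linear intensity values, made with RMA in R 2.12 per the submitters' processing notes, and not on the log2 scale. These were taken to log2 here without further normalization. Median intensity was 78.3 to 81.4 units on the ING2 siRNA arrays and 75.6 to 77.1 on the control arrays. The interquartile range of log2 values was 3.11 to 3.27 after ING2 siRNA and 3.33 to 3.38 in controls. Neither measure overlapped between the groups (exact two-sided permutation p = 0.1 for each). The part of these array differences in the USP results was not tested. Gene identifiers came from the platform annotation of 2016. Symbols were those of RefSeq for the 19735 genes found there, and those of the annotation for the rest. Of the probe sets, 62 were array controls and 41091 named 1 gene, giving 19777 genes. Groups were compared with limma 3.58.1 in R 4.3.3 (lmFit, eBayes, two-sided, Benjamini-Hochberg over all genes, threshold 0.05), and probe sets alone in a fit over all 41091. The steps were tested on simulated data. The number of arrays limits the precision, and no detection calls were used. Members, gene lists and tests were chosen with earlier results of these data known. The genes described on every array were those past the threshold and the 5 highest and 5 lowest others, and the other members are named with their log2 change. Alternatives covered scaling, dim genes, probe set choice, variance model, array weights, the replicate block, single arrays and the threshold.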

Additional observations from a re-analysis of the deposited data

How the results depend on the processing

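Counts of USP genes past the threshold depended on the processing, while USP8 and USP33 stayed below 0 under every alternative run, as did USP44 under all but the filter on dim genes, which removed it. From 0 higher and 3 lower in limma (716 and 924 over all genes), the counts were 1 and 2 after quantile normalization (944 and 623) or cyclic loess (447 and 686). They were 0 and 4 after median centring (260 and 1450), and 1 and 3 without the dimmest 25% of genes (870 and 1252), where USP44 was not tested. Averaging the probe sets of a gene gave 2 and 7 (1229 and 1391). The most variable probe set of each gene, by interquartile range, gave 1 and 9 (1307 and 1953). Counts were 1 and 5 with an intensity trend and robust eBayes (971 and 1436), and 2 and 10 with array weights (1927 and 1931). At an adjusted p under 0.10 they were 3 and 7 (2483 and 2017). The counts over all genes grew too in most of these. USP38 passed as lower in each of these alternatives except quantile normalization and cyclic loess. The USP median of -0.02 was -0.092 after median centring over all members and -0.10 with the most variable probe set. Partner and substrate genes, 0 higher and 11 lower, were 3 higher and 7 lower after quantile normalization, and 1, 1 and 3 were higher with averaged probe sets, the most variable probe set and array weights. After cyclic loess 0 were higher and 8 lower, and after median centring 0 were higher and 12 lower. Leaving out each array in turn gave 0 to 2 USP genes higher and 0 to 8 lower, a USP median of -0.04 to 0.01, an ING2 log2 change of -3.07 to -2.96, and 0 to 3 partner and substrate genes higher and 0 to 15 lower. Over the 13 named genes and all alternatives, 145 values kept their side of the threshold, 40 newly passed, 17 no longer passed, and 5 single probe sets, of USP45, USP53, USP12 and USP36, lay across 0 from the main one without passing. The cause of these shifts was not tested. Both groups carry replicate numbers 1 to 3, and the deviations of same-numbered arrays correlated at 0.26, 0.29 and -0.02, so not every pair was over 0.1 and the numbers were not taken to pair the arrays, and replicate 3 did not correlate best with its own number. With the replicate number as a block, 1 USP gene was higher and 9 lower, 2 partner and substrate genes were higher, and over all genes 1630 were higher and 1878 lower.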
